A study of Mus musculus with 4 samples.

Results

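The ATF4 amino acid stress response was examined as a set of 36 named genes in the frontonasal prominence (FNP), the embryonic tissue that forms the nose and snout. The 36 genes were listed by name in 4 classes (12 stress factors, 10 genes of amino acid synthesis, 6 amino acid transporters and 8 cytosolic tRNA synthetases), and all 36 were among the 33708 rows of the deposited table. The list was chosen from genes whose log2 RPKM values in both genotypes had been seen. The differences given for them therefore describe the set, and no test was made of them. The data were RNA sequencing of FNPs from 4 FVB/NJ mouse embryos at E10.5, all at 29 somites, and the study made the comparison to find transcripts that differ in the developing nose and snout when Smchd1 is mutated. The control group, WT, was Smchd1+/+ and held 1 female and 1 male embryo by their labels. The other group, MD43, held 2 embryos labelled male and homozygous for MommeD43, a missense allele of the chromatin silencing gene Smchd1 that arose in a chemical mutagenesis screen. WT replicate 2 and MD43 replicate 2 carry the same mother number, whereas both replicate 1 embryos came from other mothers. Genotype therefore cannot be told apart from sex or litter in full. The table gives 1 value per gene and genotype, in which the authors had merged the 2 libraries, so no value per embryo, standard deviation or p-value was computed from them.

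ATF4 is a transcription factor whose mRNA is translated when the kinases of the eIF2 pathway sense uncharged tRNA, unfolded protein, haem shortage or viral RNA. It then pairs with C/EBP family factors at a composite DNA element and raises genes that make, import and load amino acids onto tRNA, together with factors that feed back on the stress itself. Because the pathway acts on translation of ATF4, the level of Atf4 mRNA is a poor guide to the amount of its protein.

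The merged values were log2 RPKM, reads normalised for transcript length and library size on a log2 scale. The deposited values imply that a merged value averages both libraries on the log2 scale, and reads below are the geometric mean of the counts of those libraries. The depth was 22328791 reads per library in MD43 and 16055882 reads in WT, again as geometric means. A gene was used if either genotype had 10 or more reads, which left 15376 genes and 35 of the 36 members. The error given is the counting SE, the smallest standard error that counting reads allows for the log2 difference. It leaves out the variation between embryos.

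Across the set, 29 of the 35 members (82.9%) were lower in MD43 than in WT, where 48.8% of all used genes were lower, and 6 were higher. Of the 35, 8 were at least 1.5-fold lower (22.9%), where 6.43% of all used genes were, and 0 were at least 1.5-fold higher, where 4.23% of all used genes were. These 8 were Chac1, Trib3, Cebpb, Vldlr, Stc2, Sesn2, Pck2 and Shmt2. The median log2 difference (MD43 minus WT) of the members was -0.26, and that of all used genes was 0.0057. Shmt2 lay just past the 1.5-fold line (1.504-fold lower) and Asns just short of it (1.491-fold lower). The difference was larger than 1.96 counting SE for 28 of the lower members and 5 of the higher ones. Of all used genes, 24.2% were lower and 26.2% were higher by as much. This line marks a 95% counting interval where both libraries had equal counts, and too narrow a one elsewhere. Most members have many reads, so small differences pass this line, and it says nothing of the spread between embryos.

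The classes were not alike. The stress factors had a median log2 difference of -0.72, with 6 of 11 used members at least 1.5-fold lower, where 6.43% of all used genes were. Amino acid synthesis genes had a median of -0.25 with 2 of 10 past that line, and transporters had a median of -0.28 with 0 of 6. The tRNA synthetases were split evenly, with 4 lower, 4 higher and a median of 0.012. The 3 members with the largest differences had low levels. Trib3, Cebpb and Chac1 had between 1.15 and 2.51 RPKM in WT, whereas the 8 synthetases had between 13.2 and 89.5 RPKM.

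**Figure D1:**
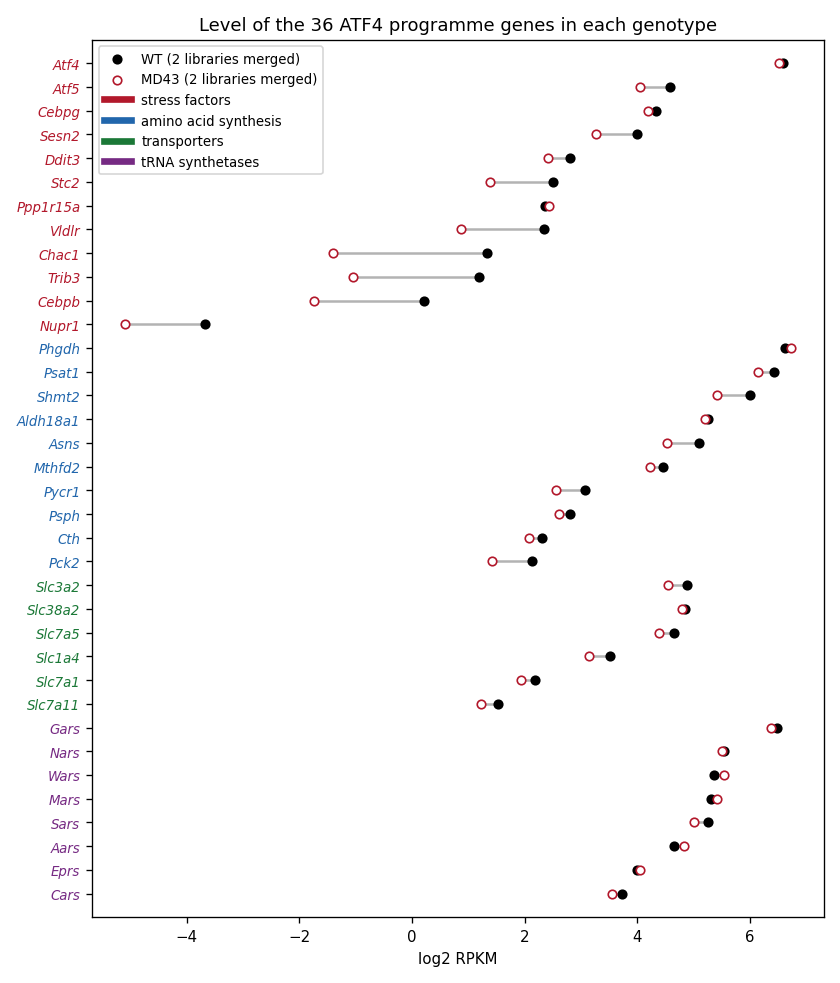
Level of the 36 genes (log2 RPKM, 1 merged value of 2 libraries per genotype) in WT (filled) and MD43 (open), with gene names coloured by class. The gap between genotypes is widest for Chac1, Trib3, Cebpb and Vldlr, and the synthetases lie close together. Nupr1 is shown but had under 10 reads in both genotypes.

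To show the element through which ATF4 acts, the RefSeq promoter windows (GRCm38.p6, 250 bases before to 50 bases after each start site) were searched on both strands for TGATGNAA, the core of the site bound by ATF4 with C/EBP factors. Of the 31 members with a window, 11 held a match (35.5%), where 1219 of 27025 genes with a window did (4.51%). The members were listed as genes of the ATF4 programme, so a higher share was likely from the start. It was not particular to them. Among lists described below, 3 of 10 other ATF4 targets and 3 of 8 other cytosolic synthetases held a match. In the remaining related lists the share was from 0% to 7.14%. Every class had matches, with 4 of 12 stress factors, 3 of 9 synthesis genes, 2 of 5 transporters and 2 of 5 synthetases. The windows of Cth, Slc7a5, Wars, Nars and Cars were not analysed here. The matches shown are given with 10 bases on either side, 5′ to 3′ on the strand of the match, with the matched letters in capitals.
Chac1, chr2:119351039-119351066, minus strand: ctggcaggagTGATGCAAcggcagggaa
Trib3, chr2:152344029-152344056, plus strand: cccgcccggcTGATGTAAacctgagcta
Vldlr, chr19:27216810-27216837, minus strand: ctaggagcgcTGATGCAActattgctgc
Nupr1, chr7:126625563-126625590, plus strand: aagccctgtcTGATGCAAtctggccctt
Pck2, chr14:55540153-55540180, minus strand: tgtaagatacTGATGTAActttgaaggc
Asns, chr6:7693215-7693242, minus strand: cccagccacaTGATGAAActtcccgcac
Pycr1, chr11:120643834-120643861, minus strand: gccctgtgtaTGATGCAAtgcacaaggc
Slc7a11, chr3:50443662-50443689, minus strand: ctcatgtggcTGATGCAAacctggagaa
Slc7a11, chr3:50443643-50443670, plus strand: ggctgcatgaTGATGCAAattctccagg
Slc1a4, chr11:20332700-20332727, plus strand: aggctggagaTGATGCAAcgcaggaggc
Aars, chr8:111033841-111033868, minus strand: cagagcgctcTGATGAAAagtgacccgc
Gars, chr6:55037961-55037988, minus strand: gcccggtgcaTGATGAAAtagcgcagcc
A match is a description of the letters and not a binding site shown in this tissue. The matches were found both in members that were much lower in MD43 (Chac1, Trib3, Vldlr, Pck2) and in synthetases that were not (Aars, Gars). Among used members, the 10 with a match had a median log2 difference of -0.55 and 4 were at least 1.5-fold lower. Of those without one, 19 had a median of -0.25 and 4 were at least 1.5-fold lower. Mars (0.10) also had no match but was left out of these 19. Cebpb, Stc2, Sesn2 and Shmt2 were lower without these letters in the window. Outside the members and all other gene lists described here, 279 used genes with a match had a median of -0.027, and 7.17% of them were at least 1.5-fold lower, beside 5.62% of the 10534 used genes outside those lists without a match.

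The stress factors begin with ATF4 itself and its partners. Atf4 mRNA was 92.4 RPKM in MD43 and 96.4 RPKM in WT, a log2 difference of -0.061 (counting SE 0.022). Cebpg, a C/EBP factor that pairs with ATF4, was 18.4 RPKM in MD43 and 20.2 RPKM in WT (log2 difference -0.14, counting SE 0.032). Both were thus nearly level between the genotypes. Atf5, a close relative of ATF4, was 16.6 RPKM in MD43 and 24.1 RPKM in WT (log2 difference -0.54, counting SE 0.052). Ddit3, which encodes the stress factor CHOP, was 5.33 RPKM in MD43 and 7.05 RPKM in WT (log2 difference -0.40, counting SE 0.10). The table has another row for Ddit3, a transcript of 105 bases inside the same gene, whose reads were 8.66 in MD43 and 7.75 in WT. Cebpb, another C/EBP factor, stood apart from Cebpg, with 0.301 RPKM in MD43 and 1.15 RPKM in WT, a log2 difference of -1.94 (counting SE 0.37). It rested on few reads, 10.1 in MD43 and 27.9 in WT. Fewer than 10 reads were found in either genotype for Nupr1, a small stress-induced chromatin factor. It had 3 reads in 1 MD43 library and 11 in 1 WT library, and 0 in the others, so no fold is given for it.

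The largest differences of the set were among the stress factors that act downstream. Chac1, an enzyme that degrades glutathione, was 0.376 RPKM in MD43 and 2.51 RPKM in WT, or 6.68-fold lower (log2 difference -2.74, counting SE 0.30). Trib3, a pseudokinase that binds ATF4 and curbs it, was 0.484 RPKM in MD43 and 2.30 RPKM in WT, or 4.74-fold lower (log2 difference -2.25, counting SE 0.24). Only 32 of the 15376 used genes were lower than Chac1 and 49 were lower than Trib3. Vldlr, a lipoprotein and reelin receptor, was 1.83 RPKM in MD43 and 5.06 RPKM in WT (log2 difference -1.47, counting SE 0.062). Stc2, a secreted glycoprotein, was 2.61 RPKM in MD43 and 5.67 RPKM in WT (log2 difference -1.12, counting SE 0.075). Sesn2, a leucine sensor that holds back mTORC1, was 9.65 RPKM in MD43 and 15.9 RPKM in WT (log2 difference -0.72, counting SE 0.051). With 411 to 887 reads for Vldlr and Sesn2, these were measured on far more reads than Chac1, which had 13.7 in MD43 and 66.0 in WT. Ppp1r15a, the stress-induced phosphatase subunit GADD34 that restores translation, was the exception, with 5.44 RPKM in MD43 and 5.18 RPKM in WT (log2 difference 0.070, counting SE 0.085).

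**Figure D2:**
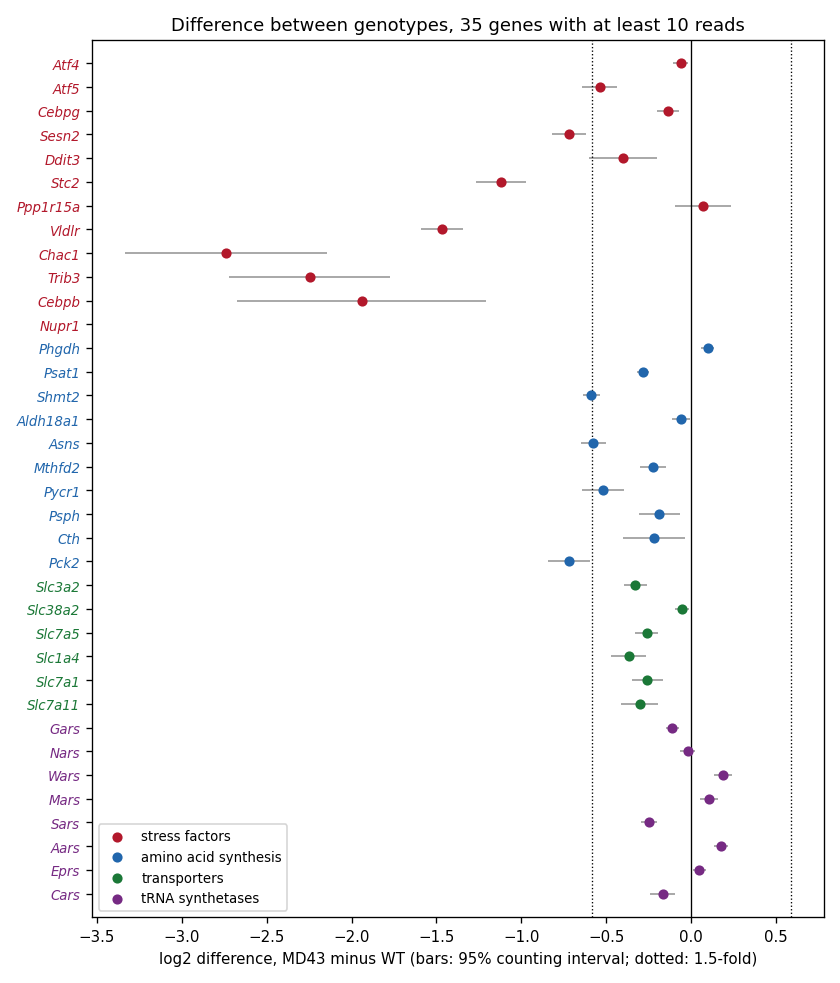
Log2 difference (MD43 minus WT) of the 35 members with at least 10 reads, coloured by class. Bars are 95% counting intervals at the smallest counting SE and do not hold the variation between embryos. Dotted lines mark 1.5-fold. The 8 genes left of the lower line are 6 stress factors with Pck2 and Shmt2, and none lies right of the upper line.

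Because the merged value is built from the product of the read counts of both libraries, that product was read as a whole number where it was under 1000000, and its factors limit how the reads can be divided between the 2 embryos. The typical ratio between the 2 libraries was 1.41 in WT (111 genes) and 1.54 in MD43 (83 genes), which includes their difference in depth. It is the median over genes whose product allows a single pair other than 1 and the product. In WT the 5th and 95th percentiles of that ratio were 1.04 and 2.18. The depths of the single libraries were estimated from the typical ratio, so limits in RPKM below are approximate. The WT product for Trib3 was 6137, which leaves the pairs 19 and 323, 17 and 361, or 1 and 6137. The 2 WT embryos therefore differed at least 17-fold in Trib3 reads. The WT library with fewer reads held at most 19 reads. That is at most 0.470 or 0.660 RPKM, depending on which of the 2 estimated depths was its own. The merged MD43 level was 0.484 RPKM. The other WT library held at least 323 (at least 7.99 or 11.2 RPKM). The most even pair for Trib3 in MD43 was 22 and 24. The lower merged level of Trib3 in MD43 thus rests on 1 of the 2 WT embryos.

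Atf5 showed a like division of smaller size. Its WT product of 595730 allows 410 and 1453 as the most even pair, at least 3.54-fold apart. At the estimated depths, 1 WT library thus held at most 15.2 RPKM of Atf5, beside a merged MD43 level of 16.6 RPKM. This product is near the limit at which whole numbers can be read (95% of WT products from 300000 to 1000000 lay within 0.276 of a whole number), so the value for Atf5 is less firm than that for Trib3. Of the 16 members whose products could be read, these 2 had WT libraries at least 3-fold apart in every possible division, and in MD43 that held for 0 of 16, where larger gaps are possible but not fixed by the factors. Among all genes with products of 500 to 100000, a range that leaves out Atf5, every division was at least 3-fold apart for 1.43% in WT and 0.696% in MD43. For the others the factors settle little. Chac1 allows, for instance, 66 and 66 or 36 and 121 in WT and 9 and 21 or 3 and 63 in MD43. Cebpb allows, among others, 21 and 37 or 7 and 111 in WT and 6 and 17 or 3 and 34 in MD43. The WT products of Sesn2, Vldlr and Slc7a1 and the MD43 product of Slc7a1 were larger than the WT product of Atf5. Any value of that size passed as whole, so their pairs are not firm. The counts of a pair cannot be assigned to an embryo, and so not to a sex or mother. Without Trib3 and Atf5, 7 of 33 members were at least 1.5-fold lower, where 6.43% of all used genes were, and the median was -0.25.

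**Figure D3:**
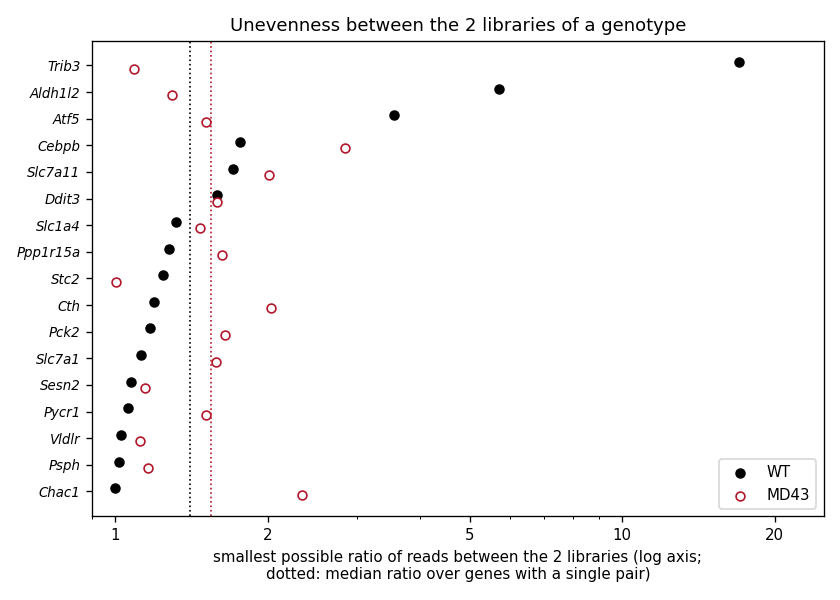
Smallest possible ratio of reads between the 2 libraries of a genotype (log axis) for members with a readable product and for Aldh1l2, in WT (filled) and MD43 (open). Dotted lines are the median ratio over genes with a single possible pair. The points for Sesn2 and Vldlr in WT and for Slc7a1 in both genotypes are not firm. Trib3 (17), Aldh1l2 (5.72) and Atf5 (3.54) stand to the right in WT, and a point to the left shows only that an even division is possible.

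The genes of amino acid synthesis lay lower in MD43, with 1 exception. Asns makes asparagine and was 23.1 RPKM in MD43 and 34.5 RPKM in WT (log2 difference -0.58, counting SE 0.038). The serine pathway from glycolysis was divided. Phgdh, its first enzyme, was 106.0 RPKM in MD43 and 99.2 RPKM in WT (log2 difference 0.096, counting SE 0.021). Psat1, the next enzyme, was 70.7 RPKM in MD43 and 86.0 RPKM in WT (log2 difference -0.28, counting SE 0.018). Psph, the last, was 6.12 RPKM in MD43 and 6.97 RPKM in WT (log2 difference -0.19, counting SE 0.062). Phgdh was the exception of the class, the one synthesis gene with a higher level in MD43.

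The mitochondrial enzymes that take serine into one-carbon metabolism were both lower. Shmt2, which splits serine into glycine and a one-carbon unit, was 42.8 RPKM in MD43 and 64.4 RPKM in WT (log2 difference -0.59, counting SE 0.026). Mthfd2, which oxidises that unit, was 18.8 RPKM in MD43 and 21.95 RPKM in WT (log2 difference -0.23, counting SE 0.039). Among the enzymes of proline synthesis, the log2 difference was -0.52 for Pycr1 (5.87 RPKM in MD43 and 8.42 RPKM in WT) and -0.059 for Aldh18a1 (37.0 RPKM in MD43 and 38.5 RPKM in WT). The last step of proline synthesis was thus lower while the first was nearly level. Cth, which makes cysteine, had a log2 difference of -0.22 (4.25 RPKM in MD43 and 4.95 RPKM in WT). Pck2, the mitochondrial PEP carboxykinase, had the largest difference of the class, -0.72 (2.67 RPKM in MD43 and 4.40 RPKM in WT).

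All 6 transporters were lower in MD43, none by as much as 1.5-fold. Slc1a4, a carrier of alanine, serine and cysteine, had a log2 difference of -0.37 (8.87 RPKM in MD43 and 11.4 RPKM in WT). Slc3a2, the shared heavy chain of several exchangers, had a log2 difference of -0.33 (23.5 RPKM in MD43 and 29.5 RPKM in WT). Its light chains in the set, Slc7a11 and Slc7a5, were lower to a like degree. Slc7a11, for cystine, had a log2 difference of -0.30 (2.34 RPKM in MD43 and 2.89 RPKM in WT) and Slc7a5, for large neutral amino acids, had one of -0.26 (20.99 RPKM in MD43 and 25.2 RPKM in WT). Slc7a1, a carrier of arginine and lysine, also had -0.26 (3.81 RPKM in MD43 and 4.56 RPKM in WT). Slc38a2, the sodium-coupled carrier SNAT2, was nearly level at -0.053 (27.9 RPKM in MD43 and 29.0 RPKM in WT), and with a correction for GC content and length its difference was 0.012.

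The 8 tRNA synthetases, which charge tRNA with its amino acid, had log2 differences from -0.25 to 0.19. Sars (-0.25), Cars (-0.17), Gars (-0.11) and Nars (-0.022) were lower, and Eprs (0.046), Mars (0.10), Aars (0.17) and Wars (0.19) were higher. Their levels in MD43 and WT were 32.3 and 38.4 RPKM for Sars and 46.8 and 41.1 RPKM for Wars, the members at either end. Read counts were high, from 1398 for Cars in WT to 6670 for Eprs in MD43, and the difference for Nars alone was under 1.96 counting SE. Nars was also the one synthetase whose sign turned (0.019) with the correction for GC content and length. Another 12 cytosolic synthetases outside the set had a median log2 difference of 0.051, with 0 past 1.5-fold in either direction, and Kars (0.054) and Rars (0.20) had the highest levels. The 17 mitochondrial synthetases had a median of 0.10, with Lars2 (1.005) alone past 1.5-fold and Rars2 (-0.045) next to it in level.

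**Figure D4:**
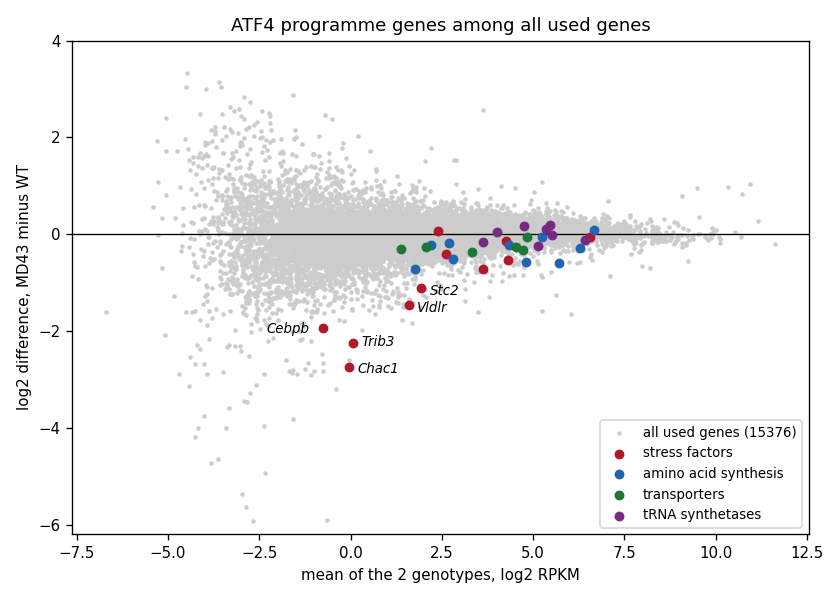
Log2 difference (MD43 minus WT) against the mean log2 RPKM of both genotypes for the 15376 used genes (grey) and the members by class (coloured). Chac1, Trib3 and Cebpb lie at the lower edge of genes of their level, and most members lie at high levels where the grey cloud is narrow.

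Further genes of the pathway were taken from lists named by role. The eIF2 arm upstream of ATF4 comprises the kinases, the eIF2 and eIF2B subunits and their regulators, and its 14 genes had a median log2 difference of 0.10 with 0 past 1.5-fold. The sensor kinases were nearly level or slightly higher, with 0.020 for Eif2ak3 (PERK), 0.0052 for Eif2ak4 (GCN2), 0.14 for Eif2ak1 (HRI) and 0.15 for Eif2ak2 (PKR). The subunits Eif2b5 (0.060) and Eif2s1 (0.042) had the highest levels of the list. The upstream genes thus had no median below 0. In a list of 14 other ATF4 targets, 12 were used, with a median of -0.43. Of these, 10 were lower and 4 were at least 1.5-fold lower, where 48.8% and 6.43% of all used genes were. These 4 were Aldh1l2, a mitochondrial folate enzyme (-1.61, counting SE 0.17), Ddit4, an inhibitor of mTORC1 (-1.26, counting SE 0.036), Atf3, a stress-induced repressor (-1.22, counting SE 0.18), and Jdp2, a relative of it (-0.93, counting SE 0.13). Ddit4 had the highest mean level of the list, 31.8 RPKM in MD43 and 75.9 RPKM in WT, and the tRNA exporter Xpot, next in level, had a log2 difference of 0.041. Fgf21 and Gdf15 had 0 reads in all 4 libraries.

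Aldh1l2 was divided in WT as Trib3 was. Its WT product of 12098 allows 46 and 263 as the most even pair, at least 5.72-fold apart. Thus 1 WT library held at most 46 reads (at most 0.322 or 0.453 RPKM at the estimated depths). The most even pair in MD43 was 44 and 57. Among genes with products of 500 to 100000 in WT, 0.268% had libraries at least 5-fold apart in every possible division.

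**Figure D5:**
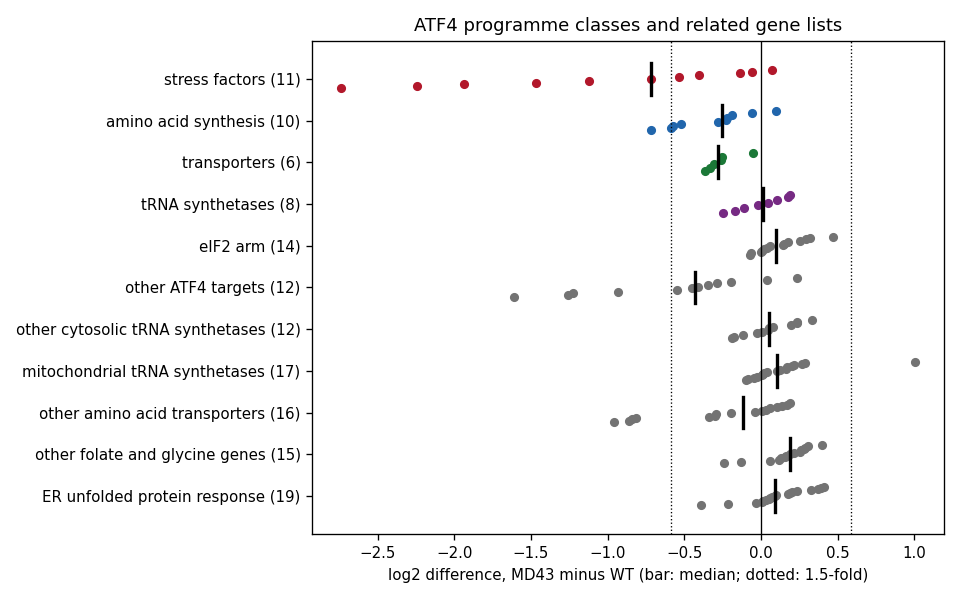
Log2 difference (MD43 minus WT) of the used genes of the 4 member classes (coloured) and 7 related lists (grey), with the number of genes in brackets and the median as a bar. Stress factors (-0.72) and other ATF4 targets (-0.43) have the lowest medians, and the eIF2 arm (0.10), folate and glycine genes (0.19) and the ER unfolded protein response (0.089) lie above 0.

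Of the neighbouring programmes, 2 had medians above 0 and 1 had a median below it. The 19 genes of the endoplasmic reticulum unfolded protein response had a median of 0.089 with 0 past 1.5-fold, and its most abundant genes, the chaperones Hsp90b1 and Hspa5, had log2 differences of 0.053 and 0.23. The 15 folate and glycine genes outside the set had a median of 0.19 with 0 past 1.5-fold, led in level by Gcsh (0.21) and Ahcy (0.40). Of 16 other amino acid transporters, 4 were at least 1.5-fold lower (25%), where 6.43% of all used genes were, and the median was -0.12. These 4 were Slc7a8 (-0.96, counting SE 0.32), Slc1a3 (-0.86, counting SE 0.068), Slc38a3 (-0.84, counting SE 0.20) and Slc7a7 (-0.82, counting SE 0.20). Slc7a8 rested on few reads, 17.5 in MD43 and 24.5 in WT, and Slc38a3 and Slc7a7 on 45.0 to 61.8. The most abundant of that list, Slc7a6 (0.033) and Slc38a10 (0.19), were not among the 4.

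The cell makeup of the FNPs was compared by marker lists, since in whole tissue fewer cells of a type and less RNA per cell cannot be told apart. All 11 facial mesenchyme markers were present, with a summed level of 182 RPKM in MD43 and 186 RPKM in WT and a median log2 difference of -0.17, with the abundant Msx1 at -0.17. Red blood cell markers were higher in MD43, with a summed level of 6031 RPKM against 3188 RPKM in WT. Of 12, 9 were at least 1.5-fold higher, where 4.23% of all used genes were. The 9 were the globins Hbb-bh1 (1.04) and Hbb-y (0.84), the most abundant, with Hba-x, Hba-a1, Hba-a2, Slc4a1, Klf1, Ermap and Epb42. Of these, Ermap had WT libraries at least 5.63-fold apart in reads. The globins Hbb-bt (-0.53, counting SE 0.19) and Hbb-bs (-0.28, counting SE 0.11) were lower in MD43. Reads of Hba-a1 and Hba-a2, near-identical copies, are uncertain in their division. Surface ectoderm markers were also higher, with a summed level of 204 RPKM against 131 RPKM. Of 10, 7 were at least 1.5-fold higher (Cdh1, Epcam, Cldn6, Cldn7, Krt8, Esrp1 and Grhl2), again beside 4.23% of all used genes. Krt18 (0.49) and Cldn6 (0.87) were the most abundant. Neural progenitor markers had a median of -0.23, with Fabp7 at -0.89 and the abundant Nes and Sox2 at 0.029 and -0.13. Young neuron markers had a median of -0.077, with Ina at -0.64 and the abundant Tubb3 and Stmn2 at 0.021 and -0.32. Endothelial markers, led by Cldn5 (-0.11) and Cdh5 (-0.0071), had a median of -0.11. Macrophage markers, of which 7 of 10 were used, had a median of -0.19, with C1qb at -0.89, Ptprc at -0.70 and Csf1r at -0.033. The part of these differences in the lower levels of the stress factors was not tested. Of the members, 8 overlap a protein-coding gene on the opposite strand, among them Ddit3 with Mars, and whether the counting used strand is not stated in the sources used here.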

How the data were processed

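FNP tissue of 2 WT and 2 MD43 embryos was sequenced from 100 ng of total RNA each with a stranded poly(A) kit. The submitters' processing notes name Trim Galore 0.4.4, HISAT2 2.0.5 and the build GRCm38.p6. The authors quantified genes in SeqMonk and deposited log2 RPKM values, 1 merged column per genotype, normalised for library size and transcript length. The deposited table also holds the authors' log fold change, mean and FDR, which were not used.

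Rows were matched to GENCODE M21 for exon lengths. Adding the log2 exon length to a deposited log2 value gives the log2 of the geometric mean of both libraries' counts, up to a constant, with no reads entered as 0.9. Its square is the product of both counts. Of products between 1.5 and 1000, 99.8% in MD43 and 99.8% in WT were whole numbers or 0.9 times one, within 0.02. Depths of single libraries were estimated from the geometric mean depth and the typical ratio between the 2 libraries. For the division between libraries, products were read as whole within 0.003 plus 8e-07 of the product. For the largest products this takes in any value, so those were read as whole by construction. The recovery was tested on simulated data built by this same rule, so that test cannot show that the deposited values were made this way.

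The merged values allow no test, so a 1.5-fold difference was used throughout. All members were named. Of each other list, every gene past 1.5-fold and the 2 most abundant were named, except for an item that is not reported here, as is 1 promoter match. The sensor kinases were added after their values were seen. Members and lists were chosen with earlier results of these data known. Alternatives were pseudocounts of 0.1 and 1 RPKM, centring, filters of 50 or no reads, a GC and length correction, and lower and higher fold lines. Python 3.11.15, numpy 2.4.6 and pandas 2.3.3 were used.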

Additional observations from a re-analysis of the deposited data

How the results depend on the processing

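The count of 8 members at least 1.5-fold lower ranged from 6 (pseudocount of 1 RPKM) to 9 (no filter on reads, or the GC content and length correction), and 0 were at least 1.5-fold higher under each alternative. At a line of 0.32 on the log2 scale 14 members were lower (13.9% of all used genes), and 5 were at least 2-fold lower (2.47%). With no filter on reads, which adds Nupr1, the median of the stress factors was -0.92. The medians of the other classes and of all members moved by less than a 95% counting interval of their typical member. With a pseudocount of 1 RPKM, which shrinks genes of low level, Chac1 was -1.35, Trib3 -1.15, Vldlr -1.10, Stc2 -0.89, Cebpb -0.73 and Pck2 -0.56. Leaving out the members with uneven WT libraries (Trib3 and Atf5) was chosen after seeing the data.

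No paired analysis was possible because each genotype has 1 merged value, and for the same reason no replicate was left out in turn. Depth limits Cebpb, Chac1, Trib3 and Nupr1 most. Variation between embryos cannot be measured, apart from the limits that the factors of the products set, and the use of sex or litter as a term was not possible.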

Other observations

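Other genes also had WT libraries far apart, and were singled out after their values were seen. Among 4470 genes with readable products of 500 to 100000 in WT, 12 had libraries at least 5-fold apart in the most even division. Trib3 was second of these, after Pmel, a melanosome protein (at least 51.8-fold, with at most 6 reads in 1 library). Upp1, a uridine phosphorylase, followed with at least 14.8-fold (at most 17 and at least 251 reads). The hypoxia-induced mitochondrial protein gene Ndufa4l2, which overlaps Shmt2 on the opposite strand, had at least 5.30-fold (10 and 53 reads). The others, beside Aldh1l2 (5.72-fold), were Kcne3, Cdhr1, Sparcl1, Scube2, Hist1h2bc, Ermap and Lrp2bp, at 5.07-fold to 6.74-fold.

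In MD43, 4 of 4886 genes were at least 5-fold apart in the most even division, and these were Afp, a yolk sac and liver protein (at least 52.6-fold), Hsd3b6 (10.54-fold), Redrum (5.90-fold) and Col15a1 (5-fold). None of them is a gene of the ATF4 set.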
